A study of Caenorhabditis elegans with 4 samples.

Results

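The left arm of Caenorhabditis elegans chromosome IV was taken as every ZFP-1 peak of the series peak list on IV whose midpoint lay below position 4500000, a window of 4.5 Mb on WormBase WS220. It held 423 of the 13878 series-list peaks, or 3.05% of the list. The same window held 128 of the 3559 peaks listed for ChIP replicate 1 and 203 of the 6371 peaks listed for ChIP replicate 2. Membership goes by position alone and uses no score, width or overlap.

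The peaks come from chromatin immunoprecipitation followed by sequencing (ChIP-seq) of ZFP-1 in whole larvae of the wild-type strain N2 at the L3 stage, kept at 20 °C, with males and hermaphrodites mixed. The labels give 2 ChIP replicates and 2 input samples, and no mutant, treatment or second stage. The antibody was a purified rabbit polyclonal against residues 573 to 867 of ZFP-1. Whole larvae were used, so a peak is not tied to a tissue. No label says that the replicates were separate cultures, so their spread may be technical.

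The zinc-finger protein ZFP-1 is found in the nucleus and is related to mammalian MLLT10 (AF10). It works together with DOT-1.1, the worm's methyltransferase for lysine 79 of histone H3, and is known as a regulator of transcription at active genes. C. elegans autosomes have a gene-dense centre flanked by arms that recombine more, hold more repeats and carry fewer highly conserved genes. Chromosome IV is also known for its large clusters of piRNA genes, whose positions were not compared with this window. No gene annotation or genome on WS220 was used here, so the peaks are named by position and no sequence is shown.

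Along the arm, the ZFP-1 peaks were spread over its whole length but unevenly. In 9 consecutive segments of 500 kb, counted from the left end, the series list held 50, 37, 46, 54, 30, 32, 44, 51 and 79 peaks, a mean of 47.0 ± 14.7 (SD over 9 segments). The fifth segment, IV:2000001-2500000, was the sparsest, and the ninth, IV:4000001-4500000, next to the chromosome centre, was the densest. Replicate 1 listed 13, 9, 17, 11, 8, 11, 16, 19 and 24 peaks in the same segments, so its lowest and highest counts fell in the same segments as those of the series list. Replicate 2 listed 28, 20, 26, 30, 17, 14, 21, 23 and 24 peaks. Its highest count was in the fourth segment and its lowest in the sixth, so its counts did not peak in the ninth segment. The share of bases under replicate 2 peaks did, at 14.1% in the ninth segment against 8.27% in the fourth, the next highest. Over 45 bins of 100 kb, replicate 1 and replicate 2 counts had a Pearson correlation of 0.73 and a Spearman correlation of 0.82. These are neighbouring bins along 1 chromosome arm, not independent samples, and the values are given as a description.

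**Figure D1:**
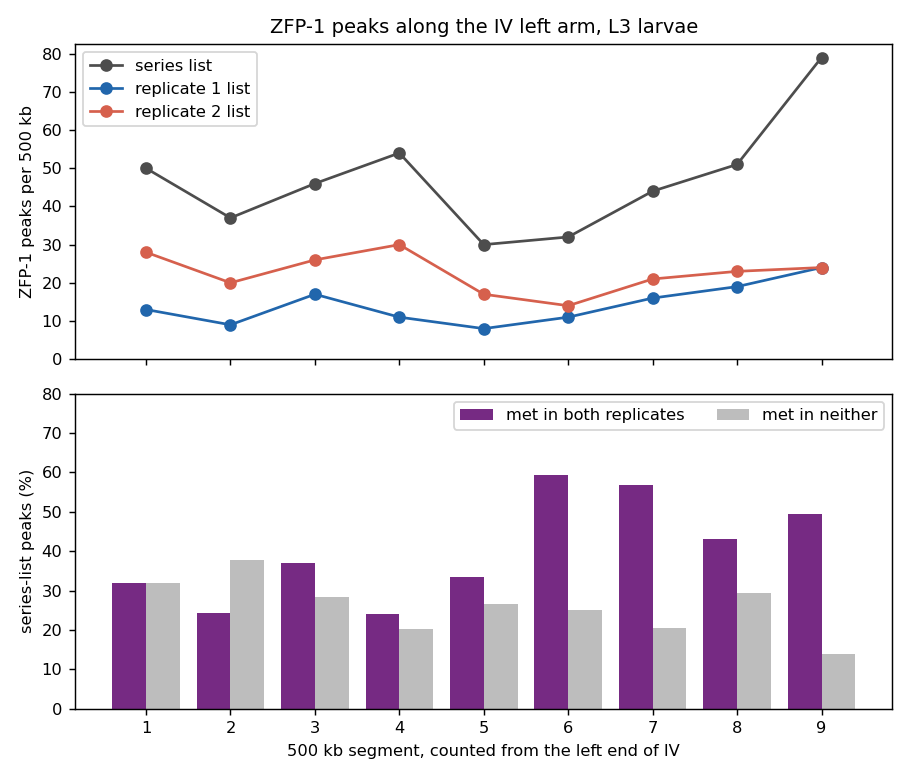
ZFP-1 peaks per 500 kb (upper panel, 1 line per peak list) and the percentage of series-list peaks met in both replicate lists or in neither (lower panel), by 500 kb segment counted from the left end of IV. The series-list line is lowest at segment 5 with 30 peaks and highest at segment 9 with 79, and the purple bars are highest at segments 6 and 7.

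The peaks of the series list were narrow. Their median width was 319 bp, with an interquartile range of 230 to 508.5 bp, and together they covered 4.03% of the arm. Replicate lists held fewer and broader peaks. Replicate 1 peaks had a median of 1166.5 bp and covered 4.28% of the arm, and replicate 2 peaks had a median of 1128 bp and covered 7.19%. The ninth segment had 8.70% of its bases under series-list peaks, against 2.06% in the fifth segment. Replicate 1 peaks covered 9.90% of the ninth and 1.88% of the fifth segment, and replicate 2 peaks 14.1% and 4.00%. The widest series-list peak was IV:4404719-4407952, which spans 3234 bp. Replicate 2 had its widest peak, of 13855 bp, over the same place (IV:4395460-4409314), where replicate 1 had a peak of 4736 bp. Replicate 1 had its own widest peak, of 6904 bp, at IV:2992909-2999812, and replicate 2 had a peak of 7143 bp there.

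The spacing of neighbouring peaks was wide-ranging. The median distance between consecutive midpoints was 2.88 kb, with an interquartile range of 1.20 to 12.5 kb. Of 422 gaps between series-list peaks, 147 (34.8%) were under 1 kb and 68 (16.1%) were over 20 kb. Over the whole series list 39.8% of gaps were under 1 kb and 9.17% over 20 kb, with a median spacing of 2.18 kb, so the arm's peaks were on the whole farther apart. That difference was not tested. Joined wherever less than 1 kb separated them, the 423 peaks formed 276 clusters, of which 203 were single peaks and 31 had at least 3 members. Clusters with more than 1 peak held 52.0% of the peaks. The largest was IV:4017692-4035428, with 17 peaks in 17737 bp, over which replicate 1 listed 6 peaks and replicate 2 listed 3. Of these 17 series-list peaks, 10 met a peak in both replicates. The next was IV:4395647-4408982, with 11 peaks in 13336 bp, 9 of them met in both replicates. Replicate 1 listed 4 peaks over it and replicate 2 listed the single widest peak described above. Both clusters lie in the ninth segment. The third, IV:3160212-3169519, had 7 peaks in 9308 bp, and all 7 were met in both replicates.

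The longest stretch of the arm without a series-list peak was IV:4277982-4386044, a length of 108 kb within the ninth segment. The densest segment therefore also held the longest empty stretch. The second stretch, IV:2497517-2599477, was 102 kb long, and the third, IV:2414003-2497237, was 83.2 kb long. The second and the third stretch were parted by a lone peak of 279 bp, IV:2497238-2497516, with a score of 27.52, that was met in replicate 2 alone. With that peak set aside, 185 kb of the arm held no series-list peak. The stretches differed between lists. In replicate 1 the longest was IV:411152-654282 (243 kb), where the series list held 9 peaks and 2 replicate 2 peaks overlapped it. Of these 2, IV:409994-411371 reached only into its left edge. In replicate 2 the longest was IV:411372-620187 (209 kb), where the series list held 6 peaks and replicate 1 held 0.

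A series-list peak was counted as met in a replicate where at least 1 bp overlapped a peak of that replicate's list. Of the 423 peaks, 170 (40.2%, 95% interval 35.5 to 45.0%) were met in both replicates, against 38.4% of the whole series list. A further 141 (33.3%) were met in replicate 2 alone, against 35.4% of the whole list. Replicate 1 alone met 7 (1.65%), against 0.944% of the whole list. The other 105 (24.8%, 20.8 to 29.2%) were met in neither, against 25.3% of the whole list. Support on the arm was therefore close to that of the list as a whole. The series list is not independent of the replicates, since it was made from the same experiment, and how it was combined is not given in the sources used here. Intervals on shares are exact (Clopper-Pearson), for counting error alone, with each peak taken as independent of its neighbours.

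Support followed the score that the authors gave each peak, whose scale is not given in the sources used here. The 423 peaks were ranked by score and cut into 4 groups of nearly equal size. Of the lowest-scoring group, 15.1% were met in both replicates, then 17.0% and 41.0% of the next groups. Of the highest-scoring group, 93 of 106 peaks (87.7%, 79.9 to 93.3%) were met in both and 0 of 106 in neither, which allows a share of up to 2.83% (3 counts of the 106, not a Clopper-Pearson limit). In the lowest-scoring group 51.9% were met in neither. Peaks met in both had a median width of 542 bp and a median score of 91.3, those met in replicate 2 alone 311 bp and 19.2, those met in replicate 1 alone 249 bp and 13.3, and those met in neither 213 bp and 9.09. Over the whole series list these medians fell in the same order, from 533 bp and 57.0 (both) to 205 bp and 7.035 (neither). The order was therefore not particular to the arm. The lowest score was 50.1 in the replicate 1 list, 50.0 in the replicate 2 list and 1.31 in the series list. Scores and support come from the same experiment and are not independent of each other. A wider peak also has more bases with which to meet another, and that was not separated from its score.

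**Figure D2:**
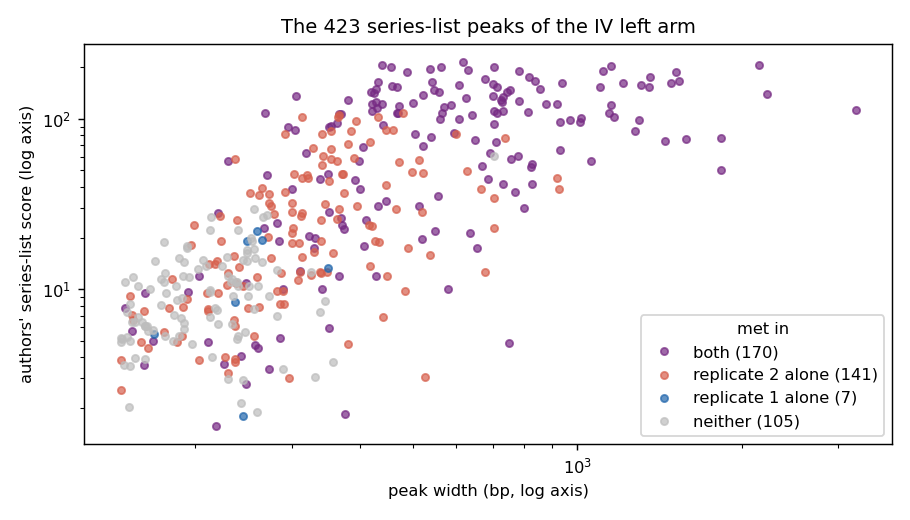
Score against width of the 423 series-list peaks of the IV left arm, both on log axes, with 1 point per peak coloured by the replicate lists it met (170 both, 141 replicate 2 alone, 7 replicate 1 alone, 105 neither). Peaks met in both lie mostly at the upper right and peaks met in neither at the lower left.

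The 10 highest-scoring peaks that were met in both replicates had scores of 189.88 to 214.58 and widths of 440 to 2152 bp. The first was IV:4092969-4093586, with a score of 214.58, a replicate 1 score of 957 and a replicate 2 score of 3201. The second was the broad peak IV:4445772-4447923, with a score of 207.74, a replicate 1 score of 1639 and a replicate 2 score of 3100. The third was IV:3519363-3519802, with a score of 206.69, and a further one of the 10, IV:3515420-3516049 with a score of 191.99, lay close by. These 4 peaks lie in the inner 2.25 Mb of the arm, toward the chromosome centre. In the outer 2.25 Mb were IV:1069889-1071040 (203.21), IV:410321-411023 (202.16), IV:1837094-1837550 (201.03), IV:1497412-1497948 (196.22) and IV:365786-366898 (189.88). The remaining peak, also in the inner part, was IV:2599478-2600041, with a score of 200.47, which borders the second-longest empty stretch and had the highest replicate 1 score of the 10, 1933.

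The replicates ranked these 10 peaks differently. Replicate 2 scores ran between 1704 and 3201, and 6 of the 10 were in the highest-scoring 10% of its list. Replicate 1 scores ran between 112 and 1933, and 2 of the 10 were in the highest-scoring 10% of its list. At IV:410321-411023 the replicate 1 score was 112 and the replicate 2 score 2296, and at IV:1837094-1837550 they were 266 and 3100. At the latter the 2 scores belong to unlike regions, of 895 bp in replicate 1 and 2685 bp in replicate 2. The replicate 2 region also covers the series-list peak IV:1838449-1839150 (score 159.49). The value 3100 recurs as a tied score in the replicate lists. Of the 10, 5 reached at least 3100 in replicate 2 and 0 in replicate 1. Over the whole arm 19 of 203 peaks of replicate 2 and 2 of 128 of replicate 1 did. Over the whole lists 521 of 6371 and 96 of 3559 did, so replicate 2 also had more such scores outside the arm.

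Between the replicate lists, 120 of the 128 replicate 1 peaks on the arm (93.75%, 88.1 to 97.3%) overlapped a replicate 2 peak, against 97.8% over the whole list. In the other direction, 110 of 203 replicate 2 peaks (54.2%, 47.1 to 61.2%) overlapped a replicate 1 peak, against 50.4% over the whole list. The 8 replicate 1 peaks without a counterpart made up 6.25% (2.74 to 11.9%) of its arm peaks, against 80 of 3559 (2.25%, 1.79 to 2.79%) over the whole list, a difference that was not tested. In the left arm of II 95 of 97 replicate 1 peaks had a counterpart, in that of III 104 of 106 and in that of V 112 of 114. The scores of the 8 peaks ran between 51.5 and 105, and the lowest score of the whole replicate 1 list was 50.1. The highest-scoring of the 8, IV:2-799, lies at the very end of the chromosome and held no series-list peak. It was at percentile 30.0 of the scores of that list, and the others were at percentile 13.0 or lower. The lowest-scoring, IV:3637910-3638848, held 1 series-list peak, and in all 6 of the 8 did. Peaks of the replicates were paired where each was the other's largest overlap. Over the 108 pairs the log10 scores had a Pearson correlation of 0.63 and a Spearman correlation of 0.71, and a Pearson correlation of 0.48 over the 89 pairs with both scores under 3100. Midpoints of the pairs were a median of 91 bp apart, and 76 of the 108 peaks were wider in replicate 2. The pairs come from 2 libraries only, so these values describe peaks and not samples.

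The window ends at a fixed position, not at a break in the peaks. Just inside lay IV:4482620-4482873 (score 19.18, met in neither replicate), IV:4481406-4481602 (4.76, neither) and IV:4478037-4478197 (7.42, replicate 2 alone). Just outside lay IV:4505114-4505272 (2.52, neither), IV:4511351-4511808 (115.95, both) and IV:4512789-4513178 (9.58, both).

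The inner part of the arm was then set beside the outer part. This comparison was added after the difference had been seen. In the inner part 108 of 225 series-list peaks (48.0%, 41.3 to 54.7%) were met in both replicates, and in the outer part 62 of 198 (31.3%, 24.9 to 38.3%). Peak density was 100 per Mb in the inner and 88.0 per Mb in the outer part. The share met in both was 43.1 to 59.4% in the 500 kb segments that lie wholly in the inner part. In those wholly in the outer part it was 24.1 to 37.0%. These are the same peaks regrouped, so the ranges are not further evidence. Segment 5, which straddles the midpoint, had 33.3%. The odds ratio, inner over outer, was 2.02 (95% interval 1.26 to 3.25; quasi-binomial regression over n = 190 bins, two-sided, Benjamini-Hochberg adjusted p = 0.0189 over 5 contrasts). The same ratio was 1.16 in the left arm of II, 0.87 in that of III and 0.93 in that of V (adjusted p = 0.72, 0.72 and 0.78, n = 190 bins). The ratio in the IV arm exceeded that of the other arms 2.08-fold (1.20 to 3.61, adjusted p = 0.0238, n = 190 bins).

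That contrast rested on the replicate 1 list. Of the inner peaks 50.2% met a replicate 1 peak and of the outer peaks 32.3%, while 76.0% of inner and 70.7% of outer peaks met a replicate 2 peak. With replicate 1 left out, the inner over outer odds ratio was 1.31 (adjusted p = 0.53, n = 190 bins) and its ratio to the other arms 1.23 (adjusted p = 0.64, n = 190 bins), so neither passed. In that setting the odds ratio was 1.60 in the left arm of II, 1.04 in that of III and 0.76 in that of V. The highest was thus that of II, not that of IV. Replicate 1 listed 74 peaks in the inner part and 54 in the outer part, whereas replicate 2 listed 94 in the inner and 109 in the outer part. The median score was 293 in the inner and 218 in the outer part in replicate 1, 579 in the inner and 353 in the outer part in replicate 2, and 23.8 in the inner and 20.2 in the outer part in the series list. Scores were thus higher in the inner part in each list, with no test made. Median widths were 338 bp in the inner and 312.5 bp in the outer part in the series list. The part of scores and widths in the difference in support was not tested.

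The arm was compared with the left arms of II (4.88 Mb, 361 series-list peaks), III (3.72 Mb, 408 peaks) and V (5.9 Mb, 429 peaks), which share the L3 larvae, libraries and lists. Of 15 contrasts, 5 measures against 3 arms, 0 passed an adjusted p of 0.05 and 0 had an unadjusted p under 0.05. The lowest unadjusted p was 0.0525 (n = 191 bins). Under the alternative settings 10 of 90 values had an unadjusted p under 0.05, among them the density ratio over V in replicate 1 (1.47, p = 0.0180, adjusted p = 0.143, n = 191 bins). Another was the log2 spacing against V among the better-scoring 50% of peaks (-0.55, p = 0.00848, adjusted p = 0.102, n = 182 bins). The intervals therefore bound the differences but do not show that the arms were alike.

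The density of the IV arm lay between that of III and those of II and V. It was 94.0 series-list peaks per Mb, against 74.0 in II, 110 in III and 72.7 in V, and 138 per Mb over all chromosomes. Series-list peaks covered 4.03% of the IV arm, against 2.90% of II, 4.33% of III and 2.78% of V. Per 100 kb the IV arm held 9.40 ± 5.99 peaks (SD, 45 bins), against 7.35 ± 4.90 in II (48 bins), 10.9 ± 6.76 in III (37 bins) and 7.27 ± 5.22 in V (59 bins). Peaks were clumped, and the variance between bins was 3.82 times the mean in the IV arm. The density ratio was 1.27 over II (95% interval 0.97 to 1.67), 0.86 over III (0.66 to 1.11) and 1.29 over V (1.00 to 1.68), with adjusted p = 0.25, 0.34 and 0.25 by quasi-Poisson regression over n = 191 bins. Counting each peak as independent, an exact two-sided binomial test gave adjusted p of 0.00131, 0.0281 and 0.000558 for the same ratios. That test ignores the clustering of neighbouring peaks described above. With peaks under 1 kb apart merged into 1, quasi-Poisson regression gave ratios of 1.12, 0.84 and 1.13 over II, III and V. Their adjusted p was 0.63, 0.45 and 0.63 (n = 191 bins). The ratios over II and V were thus smaller after merging.

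Within each replicate list the order was similar. Replicate 1 had 28.4 peaks per Mb in the IV arm, against 19.9 in II, 28.5 in III and 19.3 in V. Replicate 2 had 45.1 in the IV arm, against 38.5 in II, 53.5 in III and 39.2 in V. In replicate 1 the ratio was 1.43 over II and 1.47 over V, both with adjusted p = 0.143 (n = 191 bins). On the rest of chromosome IV, to the right of the window, the series list had 122 peaks per Mb, which was not tested against the arm. An IV window ended at 3.9 Mb leaves out the ninth segment, the densest. With it, the series-list density ratios were 1.18 over II, 0.80 over III and 1.20 over V. Their adjusted p by quasi-Poisson regression was 0.51 each (n = 185 bins).

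**Figure D3:**
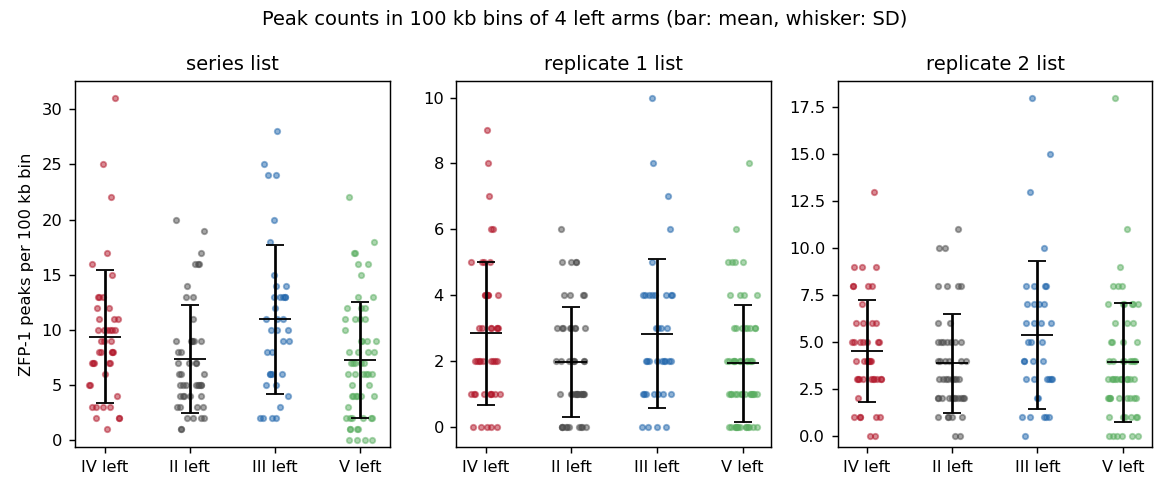
ZFP-1 peaks per 100 kb bin in 4 left arms for the series list, replicate 1 and replicate 2, with 1 point per bin, bars at the mean and whiskers at 1 SD. In the series list the IV arm averages 9.40 per bin against 7.35 in II, 10.9 in III and 7.27 in V. The whiskers show the spread of single bins, not the error of the mean.

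No contrast in width or spacing passed the threshold. The median width was 319 bp in the IV arm, against 302 bp in II, 299 bp in III and 304 bp in V. On the log2 scale the IV arm was wider by 0.09 than II (95% interval -0.06 to 0.25), by 0.10 than III (-0.04 to 0.23) and by 0.10 than V (-0.03 to 0.22), with adjusted p = 0.34, 0.29 and 0.29 over n = 187 bins. Median spacing was 2.88 kb in the IV arm, against 4.01 kb in II, 3.25 kb in III and 4.49 kb in V. The log2 differences in spacing were -0.39 against II (-0.83 to 0.05), 0.03 against III (-0.35 to 0.41) and -0.37 against V (-0.76 to 0.01), with adjusted p = 0.25, 0.87 and 0.25 over n = 187 bins. In the same regression with peaks under 1 kb apart merged, they were -0.09, 0.11 and -0.05 (adjusted p = 0.67, 0.67 and 0.79, n = 186 bins). With the IV window ended at 3.9 Mb they were -0.18, 0.24 and -0.17 (adjusted p = 0.51 each, n = 181 bins). Peaks in clusters of more than 1 made up 52.0% in the IV arm, against 39.9% in II, 51.2% in III and 39.2% in V. Gaps under 1 kb were 34.8% of gaps in the IV arm, against 26.1% in II, 33.4% in III and 25.5% in V. Spacing is not independent of density, so these are not separate evidence.

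**Figure D4:**
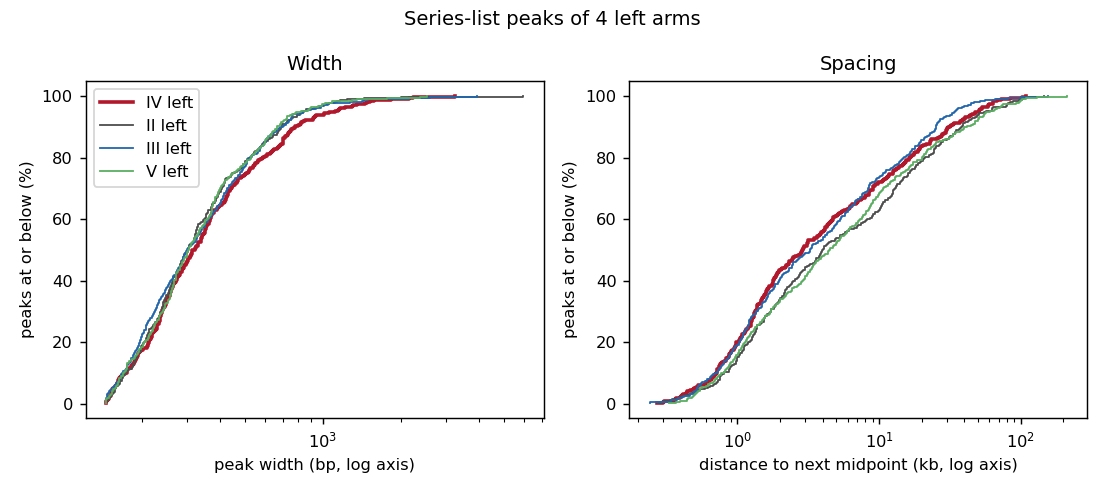
Cumulative percentage of series-list peaks by width (left, bp, log axis) and by distance to the next midpoint (right, kb, log axis), 1 line per arm. The IV line has a median width of 319 bp, and in spacing it runs close to the III line and above those of II and V over most of the range.

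Support and score did not separate the IV arm from the others either. The share met in both replicates was 40.2% in the IV arm, against 34.3% in II, 33.1% in III and 35.2% in V, and 24.8% of IV peaks were met in neither, against 31.9%, 31.9% and 28.0%. The odds ratio of support in both was 1.28 over II (95% interval 0.91 to 1.81), 1.36 over III (0.97 to 1.90) and 1.24 over V (0.89 to 1.72), with adjusted p = 0.29, 0.25 and 0.34 over n = 187 bins. In the same quasi-binomial fit with the IV window ended at 3.9 Mb, they were 1.19, 1.26 and 1.15 (adjusted p = 0.51, 0.51 and 0.52, n = 181 bins). Among the better-scoring 50% of peaks they were 1.45, 1.43 and 1.38 (adjusted p = 0.15 each, n = 182 bins). Peaks in the better-scoring 50% of the series list were 56.5% of the IV arm, against 59.0% of II, 52.5% of III and 55.7% of V. Those odds ratios were 0.90, 1.18 and 1.03 (adjusted p = 0.59, 0.35 and 0.87, n = 187 bins).

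**Figure D5:**
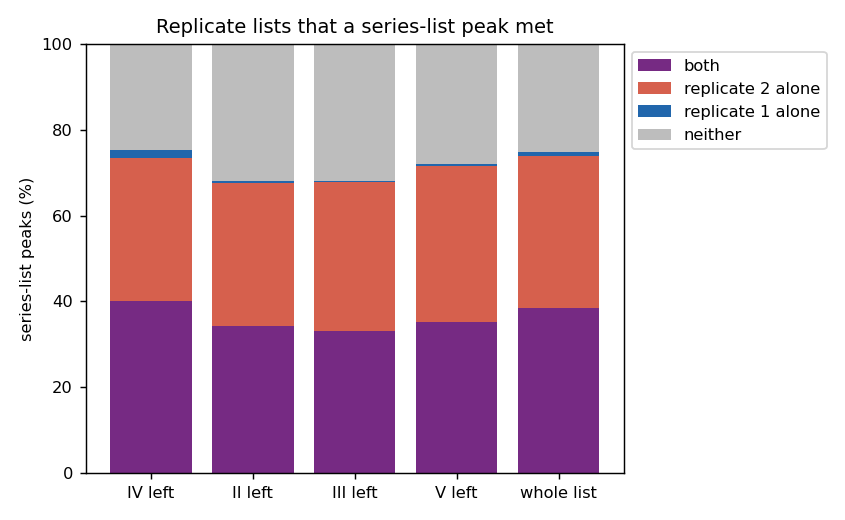
Percentage of series-list peaks that met both replicate lists, replicate 2 alone, replicate 1 alone or neither, stacked to 100 for each left arm and the whole list. The share met in both is 40.2% in the IV arm, against 34.3% in II, 33.1% in III, 35.2% in V and 38.4% in the whole list.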

How the data were processed

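Per the file headers, the 3 GFF3 peak lists are on WormBase WS220 and their coordinates count from 1. The replicate lists name their caller as MACS, the series list as MACS v2. The deposited score per peak is the authors' own, its scale is not stated, and it served for ranks and filters inside each list and for the correlation over replicate pairs. BWA and the build ce10 come from the submitters' processing notes, with no role given. Whether the series list pools reads or uses the input is not given in the sources used here, and no input peak list was analysed here. Depth is unknown.

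Counts and overlaps used Python 3.11.15, pandas 2.3.3 and scipy 1.17.1, and overlaps equalled those of bedtools 2.31.1. Arms were compared over 100 kb bins with statsmodels 0.14.6 by quasi-Poisson and quasi-binomial regression, and by linear regression of log2 width and spacing with standard errors clustered by bin. Tests were two-sided with Benjamini-Hochberg adjustment over 15 contrasts, and over the contrasts run under each alternative. The density, support and width models were tested on simulated data, and the spacing and inner over outer fits were not. The named peaks were the 10 highest-scoring met in both replicates, the widest of each list, the 3 longest empty stretches, the 3 peaks on each side of the boundary, and the densest and sparsest 500 kb; clusters, replicate 1 peaks without a counterpart and the lone peak were chosen after their values were seen. The members and lists were chosen with earlier results of these data known. The gene table used here is on another build, so no peak was assigned to a gene.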

Additional observations from a re-analysis of the deposited data

Results flagged for a closer look

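The inner over outer odds ratio of support in both replicates was larger in the IV left arm than in the left arms of II, III and V by a factor of 2.08 (95% interval 1.20 to 3.61, quasi-binomial regression, adjusted p = 0.0238, n = 190 bins). It was picked out because the test of the difference itself passed. The fit was added after the difference within the IV arm had been seen, so its p-value overstates the evidence. It did not pass without replicate 1, and it did not pass among the better-scoring 50% of peaks. Without replicate 1 the inner over outer odds ratio was higher in II (1.60) than in IV (1.31).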

How the results depend on the processing

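The 15 contrasts between arms were recomputed under 11 alternatives, giving 90 values. Of these, 80 kept their direction and side of the threshold, 3 crossed it and 7 turned direction. The 10 values with an unadjusted p under 0.05 were another set, which held these 3 and none of the 7. Adjustment covered fewer contrasts under some alternatives. An exact binomial test of peaks as independent took the density ratios past the threshold: 1.27 over II, 0.857 over III and 1.29 over V (adjusted p = 0.00131, 0.0281 and 0.000558). Of the 7 that turned direction, none passed the threshold. With replicate 1 in place of the series list, these were the log2 width against II (-0.012), the log2 spacing against III (-0.067) and the score odds ratio over II (1.07). The score odds ratio over II was 1.26 with replicate 2. The log2 spacing against III was -0.16 with the better-scoring 50% of peaks. With the highest-scoring 10%, the score odds ratios were 0.888 over III and 0.997 over V. The cause of these turns was not tested.

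For the inner over outer comparison, 9 of 12 added values kept their call. Some of these could hardly have changed. Peaks met in both were 170 of the 177 arm peaks met in replicate 1, so leaving out replicate 2 altered few of them. The 250 kb bins left the odds ratios as they were and altered only their error. Without replicate 1 the odds ratio was 1.31 and its ratio to the other arms 1.23. Over leaving out either replicate they ran from 1.31 to 2.11 and from 1.23 to 2.23. With the better-scoring 50% of peaks the ratio to the other arms was 1.89 (adjusted p = 0.117, n = 184 bins). No paired analysis was possible because the labels' replicate numbers pair each ChIP with an input, and no input values were analysed here; values within each replicate list are given above. Read depth is unknown, so whether the smaller replicate 1 list reflects depth was not tested.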
